A study of Mus musculus with 14 samples.

Results

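Liver sinusoidal endothelial cells (LSECs) were sequenced 1 day after a single injection of carbon tetrachloride (CCl4) and compared with LSECs of healthy liver. By their labels, 6 of the 14 samples of the series belong to this comparison, 4 healthy samples and 2 samples taken at day 1, and the other samples were taken 3 and 7 days after the injection (4 samples each). All mice were male Balb/c mice, and the labels give an age of 10 to 12 weeks. Injured mice received CCl4 in mineral oil into the peritoneum at 0.5 µL per gram of body weight, while the healthy mice were not injected, so that the effects of the oil and of the injection cannot be told apart from those of CCl4. LSECs were sorted from perfused livers as CD32+ F4/80- cells without UV autofluorescence or propidium iodide staining, and the methods add a CD45- gate. Further day 1 samples were collected but not sequenced because of low RNA integrity, which leaves 2 mice at this time. RNA was taken from the sorted cells without culture, and 85458439 to 103912264 reads were counted on genes in the healthy samples against 88665669 and 94626259 at day 1. Mitochondrial genes took 3.04% to 3.65% of the counts in healthy samples and 4.49% and 3.51% at day 1. Levels are given as CPM, the counts per 1000000 of the library size after scaling by the TMM method of edgeR, in healthy replicates 1 to 4 and then day 1 replicates 1 and 2.

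LSECs line the sinusoids of the liver lobule. They take up waste molecules from the blood with scavenger and lectin receptors, and they release angiocrine factors that act on hepatocytes and stellate cells. CCl4 is turned into a reactive radical by cytochrome P450 enzymes of the hepatocytes around the central vein, where those cells die, and neutrophils and monocytes enter the tissue during the following days.

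At day 1, 1080 of 26626 tested genes (4.06%) were called changed, that is, had an adjusted p under 0.05 in the quasi-likelihood test of edgeR. Of these, 644 genes (2.42% of those tested) were higher and 436 genes (1.64%) lower than in healthy LSECs, and the median log2 fold change over all tested genes was -0.03. DESeq2 called 1219 genes higher and 1620 lower, so that the balance of rises and falls turned with the test. Both day 1 samples lay above all healthy samples in 20.0% of tested genes and below all of them in 17.9%. Replicate 1 of day 1 weighed on the calls, since 164 genes were called without it, 467 without replicate 2 and 714 to 810 with 1 of the healthy samples left out. Of the 111 called genes named in the results, 92 to 96 kept their call without a given healthy sample, 74 without day 1 replicate 2 and 49 without day 1 replicate 1. In 48 of them the call was kept in each of these 6 repeats.

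Defining endothelial markers were present in both day 1 samples. Most members of the scavenger receptor and endothelial identity lists had lower values at day 1, as given below. Stab2, a scavenger receptor of LSECs, was at 1954, 1860.4, 1865 and 1577 CPM in healthy LSECs and at 1684 and 1404 CPM at day 1, and the endothelial adhesion molecule Pecam1 at 316, 401, 428 and 416 CPM in healthy LSECs and at 367 and 399 CPM at day 1. Neither gene was called changed (adjusted p = 0.796 and 0.990), and their ranges overlapped between the groups. Clec4g, a lectin of LSECs, was at 6517, 4875, 5369.6 and 4639 CPM in healthy LSECs and at 1987 and 3381 CPM at day 1, without overlap and without a call (log2 fold change -1.0, SE 0.33, adjusted p = 0.116). SE is the standard error of the log2 fold change (day 1 against healthy). In a bulk sample, fewer cells of a type and less RNA per cell cannot be told apart.

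Markers of neutrophils were higher in both day 1 samples. Summed over 13 neutrophil markers, the level was 118, 136, 148 and 22.1 CPM in healthy LSECs, 6956 CPM in day 1 replicate 1 and 2771 CPM in replicate 2. Of the 12 that passed the filter on low counts, 5 were called higher and none lower, and 1 or 2 with any 1 sample left out. Their defining genes S100a8 and S100a9, which encode the subunits of calprotectin, were at 4.03 to 34.0 and 9.99 to 81.8 CPM in healthy LSECs. At day 1, S100a8 was at 2139.8 and 736 CPM and S100a9 at 3692 and 1595 CPM (adjusted p = 0.0395 and 0.0529), so that both samples stood above every healthy sample. The test did not call S100a8 when any 1 of the 6 samples was left out (adjusted p from 0.0659 to 0.306). Monocyte markers summed to 552 to 1587 CPM in healthy LSECs and to 2539 and 2214 CPM at day 1, and 4 of 12 were called higher (Vcan, F13a1, Chil3 and Itgam), of which 1 was called without day 1 replicate 1, 2 without day 1 replicate 2 or healthy replicate 1 or 4, and 3 without healthy replicate 2 or 3. Vcan was called in each case, and no call was made for F13a1 without day 1 replicate 1 (adjusted p = 0.0984), Chil3 without any 1 of the 6 samples (adjusted p from 0.0533 to 0.138) and Itgam without day 1 replicate 1 or 2 or healthy replicate 1 or 4 (adjusted p from 0.0605 to 0.237). The defining monocyte genes Ly6c2 (3.22 to 26.8 against 65.0 and 95.7 CPM) and Ccr2 (5.06 to 20.9 against 76.7 and 53 CPM) did not pass the test (adjusted p = 0.269 and 0.125). Kupffer cell markers overlapped between the groups, at 333 to 2095 CPM in healthy LSECs and 2633 and 1198 CPM at day 1, with none of 12 called by edgeR (2 at an unadjusted p under 0.05, and 2 called higher by DESeq2).

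Markers of hepatocytes summed to less in both day 1 samples than in any healthy sample. Summed over 14 genes they were at 361, 359, 596 and 12467 CPM in healthy LSECs and at 199.5 and 262 CPM at day 1. Healthy replicate 4 thus stood far above the other samples, and edgeR called none of the 14, while 11 had an unadjusted p under 0.05 and DESeq2 called 11 lower. Albumin (Alb) showed the same pattern, at 95.5, 68.8, 124 and 2611 CPM in healthy LSECs and 12.3 and 59.8 CPM at day 1 (adjusted p = 0.178). No marker of stellate cells, T and NK cells, B cells or dendritic cells was called by edgeR, and 0 of 14, 1 of 12, 4 of 10 and 4 of 10 had an unadjusted p under 0.05 (DESeq2 called 0, 1, 2 and 0). Their median log2 fold changes were -0.59, -0.88, -1.1 and 1.4. Dendritic cell markers summed to 697 to 822 CPM in healthy LSECs and to 971 and 1268 CPM at day 1. Of these 10 markers, 6 lay above and 1 below all healthy samples, against 20.0% and 17.9% of all tested genes. Of the red cell and platelet list 3 of 11 genes were called higher (Itga2b, Pf4 and Ppbp), with 1 call without either day 1 sample and 2 without a given healthy sample, and of the cholangiocyte list 1 of 7 (Tspan8).

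**Figure D1:**
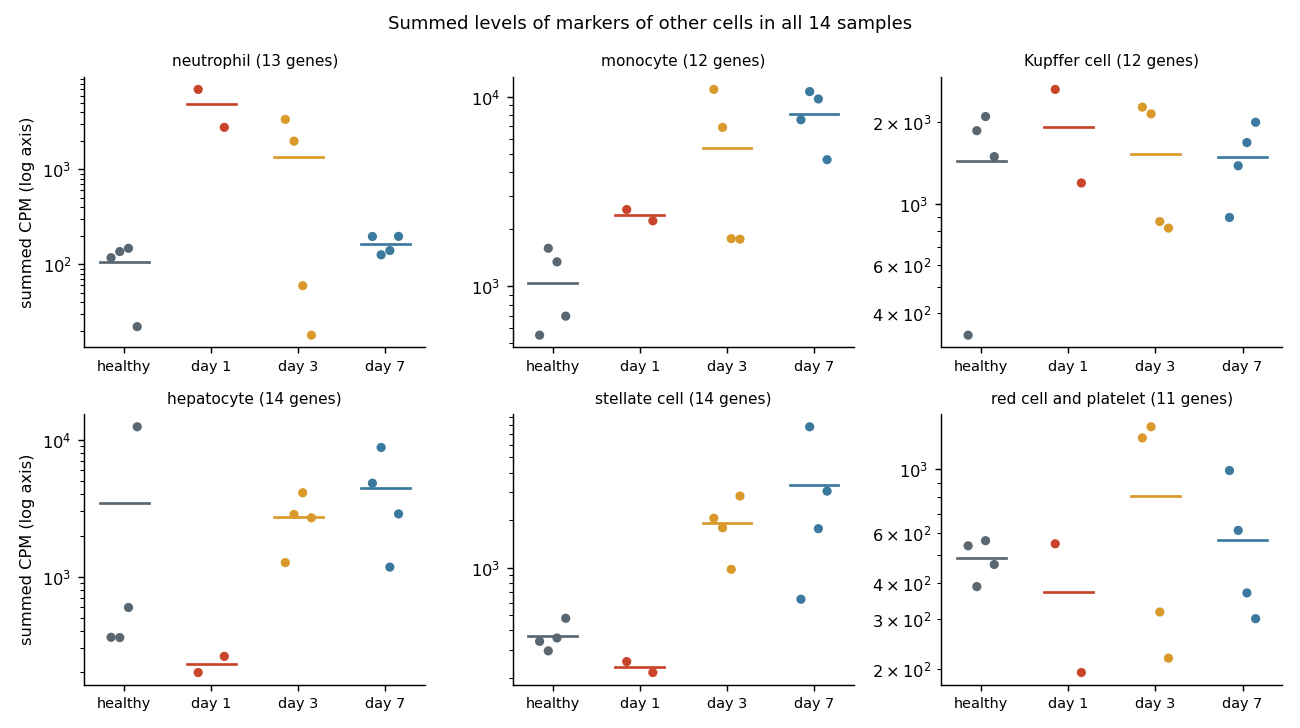
Summed CPM of marker genes of 6 other cell types (log axis) in healthy LSECs and 1, 3 and 7 days after CCl4, with 1 point per sample and a line at the group mean. Neutrophil markers stand at 2771 CPM or more in both day 1 samples and at no more than 148 CPM in the healthy samples, and 1 healthy sample stands apart in the hepatocyte markers.

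Among the 8 largest rises were Car4, a carbonic anhydrase bound to the membrane (gene span on chromosome 11, 84957786 to 84966044 in GRCm38), Ctsj, a cathepsin, and Map3k6, a kinase. Car4 had 8 counts in 1 healthy sample and none in the other 3, against 84.1 and 62.0 CPM at day 1 (adjusted p = 0.00394). Ctsj was at 0, 0.282, 0.177 and 0 CPM in healthy LSECs and at 64.7 and 91.2 CPM at day 1 (log2 fold change 9.41, SE 1.15, adjusted p = 0.000558). Map3k6 was at 0.180, 0.200, 0.707 and 0.343 CPM and then at 68.4 and 55.1 CPM (log2 fold change 7.42, SE 0.69, adjusted p = 6.82e-05). These genes were thus close to undetected in healthy LSECs and clearly present in both injured mice. Steap1 (0.0687 to 0.17 against 26.1 and 12.2 CPM), a metalloreductase, and Tubb3 (0.0801 to 0.17 against 18.9 and 18.7 CPM), a tubulin, belonged to them too. So were Mmp8 (0.561 to 1.64 against 254 and 89.8 CPM) and Vcan (0.110 to 0.172 against 58.6 and 24.5 CPM), which the marker lists hold for neutrophils and monocytes. Gm45717 (0.435 to 1.02 against 1218 and 1139.9 CPM) shares exons with Ifitm2 and Ifitm5, so that its counts are uncertain, and it was not called when any 1 of the 6 samples was left out (adjusted p from 0.0948 to 0.190).

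The largest falls included a chemokine receptor, an integrin subunit and a matrix proteoglycan. Stellate cell markers summed to 296 to 477 CPM in healthy LSECs and to 253 and 216 CPM at day 1. The part of other cells in the largest falls was not tested. Ackr4, a scavenging receptor for chemokines that overlaps Acad11, was at 39.9, 71.5, 73.8 and 55.1 CPM in healthy LSECs and at 1.20 and 1.90 CPM at day 1 (log2 fold change -5.27, SE 0.45, adjusted p = 4.45e-05). The integrin subunit Itga8 fell from 135, 109, 151 and 70.7 CPM to 8.23 and 8.94 CPM (log2 fold change -3.76, SE 0.47, adjusted p = 0.000629). Prelp, a small leucine-rich proteoglycan, was at 124, 119.9, 162 and 137 CPM in healthy LSECs and 13 and 10.9 CPM at day 1 (log2 fold change -3.51, SE 0.46, adjusted p = 0.000840). The membrane protein gene Gpr155 was at 159, 108, 118 and 143 CPM and then at 8.97 and 12.9 CPM (log2 fold change -3.59, SE 0.35, adjusted p = 0.000134). In these genes the highest day 1 sample stood well below the lowest healthy sample. Samd12 (13.6 to 20.4 against 0.203 and 1.39 CPM), the lipogenic gene Thrsp (31.6 to 101 against 2.70 and 2.84 CPM) and Car3 completed the list with Nr1d1, described below. Car3 was at 19.5, 14.1, 50.3 and 1094 CPM in healthy LSECs, highest in the sample with the most hepatocyte marker RNA, and at 0.837 and 0.638 CPM at day 1, and the part of hepatocyte RNA in this fall was not tested. Among these falls, the test no longer called Samd12, Thrsp and Car3 without day 1 replicate 1 (adjusted p from 0.141 to 0.456) and Thrsp and Car3 without day 1 replicate 2 (adjusted p from 0.108 to 0.266).

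**Figure D2:**
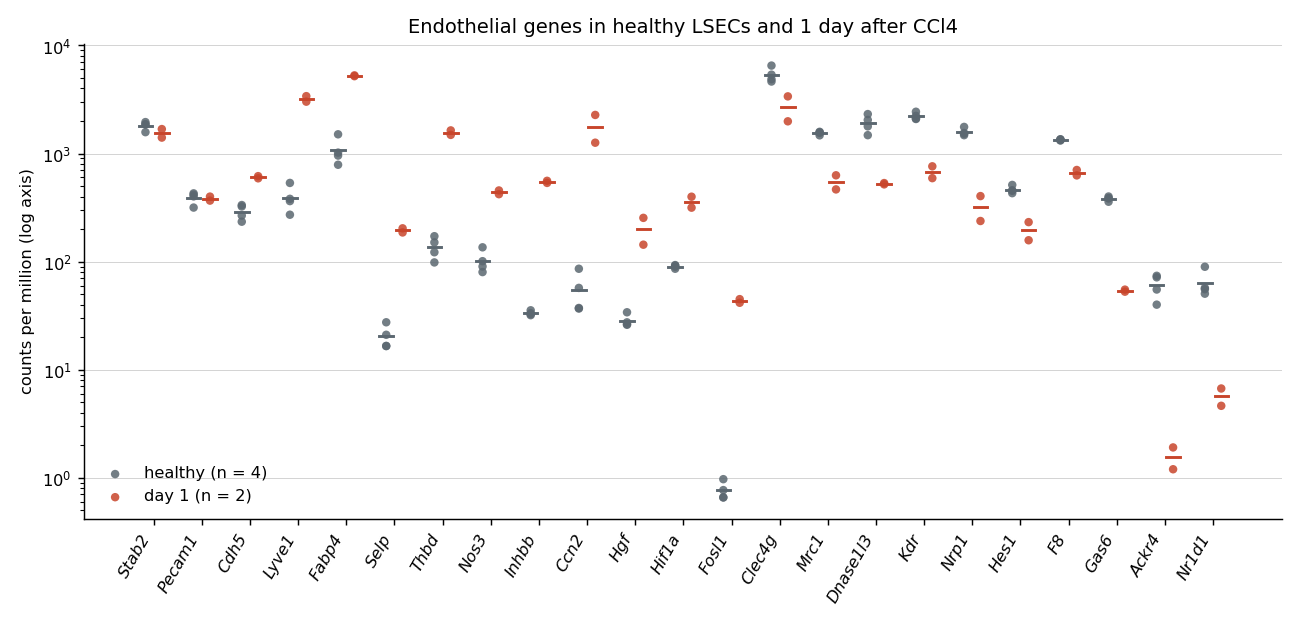
Level in CPM (log axis) of 23 genes in the 4 healthy samples (grey) and the 2 day 1 samples (red), with 1 point per sample and a line at the group mean. Stab2 and Pecam1 overlap between the groups, whereas genes from Cdh5 to Fosl1 stand above and genes from Clec4g to Nr1d1 below all healthy samples at day 1.

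Scavenger and lectin receptors of LSECs moved in both directions. Of 17 tested, 2 were called higher and 2 lower, and the median log2 fold change was -0.42. A negative value was found in 13 of the 17. Below all healthy samples lay 7 and above them 2, against 17.9% and 20.0% of all tested genes. Lyve1, the hyaluronan receptor of lymphatic and sinusoidal endothelium (chromosome 7, 110850607 to 110863239), rose from 363, 381, 534 and 271 CPM to 3020.3 and 3397 CPM, a change of 8.28-fold (log2 fold change 3.05, SE 0.26, adjusted p = 4.45e-05). Clec1b, the podoplanin receptor known as CLEC-2, was at 291 to 467 CPM in healthy LSECs and at 1179.7 and 1175 CPM at day 1 (adjusted p = 0.0395), and it shares exons with Clec9a. Mrc1, the mannose receptor, fell from 1569, 1474, 1588 and 1553 CPM to 466 and 629 CPM (log2 fold change -1.50, SE 0.27, adjusted p = 0.00756). Dnase1l3, a secreted nuclease, fell from 2318, 1785, 2045 and 1479 CPM to 533 and 518 CPM (log2 fold change -1.86, SE 0.30, adjusted p = 0.00357). Lyve1 was thus higher and Mrc1 lower in the same day 1 samples, beside a Stab2 level that overlapped. Of these calls, those lost with a sample left out were Clec1b, Mrc1 and Dnase1l3 without day 1 replicate 1 or 2 (adjusted p from 0.0532 to 0.282) and Clec1b without healthy replicate 1, 2, 3 or 4 (adjusted p from 0.0602 to 0.0859).

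Among 24 genes of endothelial identity, 1 was called higher and 1 lower, with a median log2 fold change of -0.27. A negative value was found in 18 of the 24. Below all healthy samples lay 12 and above them 4, against 17.9% and 20.0% of all tested genes. Cdh5, which encodes the junction protein VE-cadherin, was at 324, 267, 334 and 234 CPM in healthy LSECs and 589.7 and 618 CPM at day 1 (log2 fold change 1.06, SE 0.22, adjusted p = 0.0137). Kdr, the main receptor for VEGF-A, was at 2088, 2231, 2436 and 2108 CPM and then at 592 and 761 CPM, 30.5% of the healthy mean (log2 fold change -1.71, SE 0.35, adjusted p = 0.0131). The groups did not overlap in either gene, and the calls were lost for Cdh5 and Kdr without day 1 replicate 1 or 2 (adjusted p from 0.0929 to 0.354). The study's list of genes of healthy human LSECs held 8 members that rose and 3 that fell among 49 tested, with a median of -0.22. The risers were Lyve1, Timp1, Akap12, Cd14, Ccl9, Ccl6, F2r and Clec1b, and the fallers Nrp1, Mrc1 and Kdr. This list was chosen by the study, so that its count is no independent evidence of a direction. Without day 1 replicate 1, 3 members were called higher and none lower (Lyve1, Timp1 and Akap12), and without replicate 2 there were 6 and 1. Its defining genes Plpp3 (3183 to 3735 against 2376 and 3084 CPM) and Ntn4 (224 to 281 against 184 and 274 CPM) were not called. Of the study's 15 genes of damaged human LSECs, Fabp4 was called higher, and Vwf, the von Willebrand factor, was at 5.22 to 12.3 CPM in healthy LSECs and 16.8 and 14.6 CPM at day 1 (adjusted p = 0.587).

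Genes of the pericentral sinusoid rose in part. Of 10 tested, 3 rose and none fell (median log2 fold change 0.72). Thbd encodes thrombomodulin, the endothelial cofactor through which thrombin activates protein C, and lies on chromosome 2, 148404466 to 148408188. It was at 98.2, 150.5, 172 and 122 CPM in healthy LSECs and at 1488 and 1637 CPM at day 1, 11.5-fold higher (log2 fold change 3.53, SE 0.41, adjusted p = 0.000382). Fabp4, a fatty acid binding protein, rose from 1506, 958, 1019.7 and 787 CPM to 5199 and 5290.4 CPM (log2 fold change 2.30, SE 0.43, adjusted p = 0.00859). Selp, described below with the adhesion molecules, was the third. Neither Wnt2 nor Rspo3, both ligands of the Wnt pathway made by central endothelium, was called. Wnt2 was at 295, 162, 238 and 252 CPM and then 90.4 and 119.7 CPM (adjusted p = 0.361), and Rspo3 at 29.2, 29.4, 29.3 and 34.9 CPM and then 135 and 179.7 CPM (adjusted p = 0.0808), so that the groups did not overlap and the values differed in opposite directions. Of 9 periportal genes, Heg1, a receptor that takes part in vessel integrity, rose (102 to 122 against 322 and 336 CPM, adjusted p = 0.000414), and Adgrg6, an adhesion G protein-coupled receptor, fell (4.38 to 11.2 against 2.03 and 2.17 CPM, adjusted p = 0.0108). Thbd and Heg1 were called with any sample left out, and the calls lost were Fabp4, Selp and Adgrg6 without day 1 replicate 1 (adjusted p from 0.0543 to 0.192) and Adgrg6 without day 1 replicate 2 (adjusted p = 0.0854).

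Vascular tone genes were higher in part. Of 18 genes on shear stress and tone, 6 were called higher and none lower, with a median log2 fold change of 0.41. DESeq2 called 6 higher and 2 lower, and with a filter of 10 counts in every sample the median was -0.04. The value was positive in 9 and negative in 9. Above all healthy samples lay 8 and below them 7, against 20.0% and 17.9% of all tested genes. Nos3, the endothelial nitric oxide synthase, was at 90.1, 101, 136 and 79.9 CPM in healthy LSECs and at 420.5 and 455 CPM at day 1 (log2 fold change 2.11, SE 0.30, adjusted p = 0.00134), and it overlaps Atg9b. Ptgs2, the inducible cyclooxygenase, was at 2.29, 5.25, 4.41 and 1.43 CPM and then at 35.9 and 32.2 CPM (log2 fold change 3.35, SE 0.52, adjusted p = 0.00276). Thbd, Edn1 (endothelin), Ace, which converts angiotensin, and the endothelin receptor gene Ednrb were the other called members, and 3 of the 6 were called without day 1 replicate 1. Klf2, the transcription factor that shear stress induces in endothelium, was at 2196, 2847, 1929 and 2123 CPM in healthy LSECs and at 867 and 764 CPM at day 1, below all healthy samples but not called (adjusted p = 0.164). Of 17 coagulation and fibrinolysis genes, Thbd and Plaur rose and F8 fell. Plaur, the urokinase receptor, went from 56.7, 64.5, 48.2 and 28.3 CPM to 562 and 489 CPM (log2 fold change 3.41, SE 0.29, adjusted p = 4.45e-05). F8, the coagulation factor that LSECs make, went from 1355, 1320.2, 1349 and 1332 CPM to 628 and 704 CPM (log2 fold change -1.01, SE 0.26, adjusted p = 0.0429). No call was made for Edn1 and Ace without day 1 replicate 1 (adjusted p from 0.105 to 0.131) and Ednrb and F8 without any 1 of the 6 samples (adjusted p from 0.0705 to 0.557), whereas Nos3, Ptgs2 and Plaur were called in each case.

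Angiocrine factors changed in 8 members. Of 24 tested, 7 rose and 1 fell, and the median log2 fold change was 0.61. Inhbb, the activin beta B chain, was at 31.9, 35.4, 32.6 and 33.3 CPM in healthy LSECs and at 559 and 535 CPM at day 1, 16.4-fold higher (log2 fold change 4.04, SE 0.40, adjusted p = 0.000134). The matricellular protein gene Ccn2 rose from 85.8, 36.7, 37.2 and 57.0 CPM to 2276 and 1259.6 CPM (log2 fold change 5.03, SE 0.46, adjusted p = 6.21e-05). Hgf, the hepatocyte growth factor, was at 27.4, 26, 26.4 and 33.9 CPM and then at 143 and 254 CPM (log2 fold change 2.80, SE 0.37, adjusted p = 0.000931). Angpt2, an antagonist of the Tie2 receptor, rose from 68.1, 49.0, 47.7 and 36.8 CPM to 166 and 232 CPM (log2 fold change 1.98, SE 0.26, adjusted p = 0.000828). Gas6, the ligand of the Axl and Mertk receptors, was at 358, 387, 384 and 400.1 CPM in healthy LSECs and at 55.0 and 52.6 CPM at day 1, 14.1% of the healthy mean, and its test gave the smallest p among the list's members (log2 fold change -2.83, SE 0.18, adjusted p = 1.37e-05). All of these 5 genes kept their call when any single sample was left out. Apln, Ereg and Pdgfb, all growth or peptide factors, were the other risers. Apln stayed low, at 0.629 to 1.02 CPM in healthy LSECs and 6.28 and 4.89 CPM at day 1. These 3 calls depended on single samples, so that 4 members of the list were called higher without either day 1 sample, and they were lost for Apln without day 1 replicate 1 or 2 (adjusted p from 0.0537 to 0.193), Ereg without day 1 replicate 1 or 2 or healthy replicate 1, 3 or 4 (adjusted p from 0.0520 to 0.166) and Pdgfb without day 1 replicate 1 or 2 or healthy replicate 1, 2 or 4 (adjusted p from 0.0660 to 0.499).

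Receptors and targets of VEGF, Notch and BMP signalling moved in few members. Of 20 VEGF and angiopoietin genes, Angpt2, Apln and Pdgfb rose and Nrp1 and Kdr fell (median log2 fold change -0.16). Nrp1, the neuropilin that acts as a coreceptor for VEGF-A, was at 1549, 1478, 1521 and 1763 CPM in healthy LSECs and at 237 and 404 CPM at day 1 (log2 fold change -2.30, SE 0.41, adjusted p = 0.00640). Flt1, the decoy VEGF receptor, overlapped between the groups (490.0 to 526 against 452 and 537 CPM). Of 16 Notch genes none rose and 2 fell, and both are transcriptional targets of the pathway. Hes1 was at 512, 452, 457 and 429.7 CPM and then at 158 and 232 CPM (log2 fold change -1.25, SE 0.27, adjusted p = 0.0186), and Hey1 at 5.89, 10.7, 10.2 and 5.54 CPM and then at 2.19 and 1.77 CPM (log2 fold change -2.03, SE 0.36, adjusted p = 0.00662). The receptor gene Notch1 (172 to 253 against 197 and 213 CPM) and the ligand gene Dll4 (230.5 to 306 against 91.5 and 158 CPM) were not called (adjusted p = 0.942 and 0.276). Of 23 BMP and TGF-beta genes only Inhbb was called, while 10 had an unadjusted p under 0.05 in edgeR. Of the 23, 5 lay above and 10 below all healthy samples, against 20.0% and 17.9% of all tested genes. The ligand gene Bmp2 was at 1883 to 2321 CPM and then 1368 and 1569.6 CPM, and the target gene Id1 at 189 to 301 CPM and then 205 and 321 CPM (adjusted p = 0.483 and 0.973). With samples left out, the genes no longer called were Apln, Kdr and Hey1 without day 1 replicate 1 or 2 (adjusted p from 0.0537 to 0.354), Pdgfb without day 1 replicate 1 or 2 or healthy replicate 1, 2 or 4 (adjusted p from 0.0660 to 0.499) and Nrp1 and Hes1 without day 1 replicate 1 (adjusted p from 0.239 to 0.375).

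Adhesion molecules that catch leukocytes rose in part. Of 14 tested, 3 rose (Selp, Cd44 and Sele) and none fell, with a median log2 fold change of 0.67. Selp, the P-selectin that endothelium stores and exposes on injury, was at 16.6, 27.4, 16.5 and 21 CPM in healthy LSECs and at 186 and 203 CPM at day 1 (log2 fold change 3.25, SE 0.60, adjusted p = 0.00798). Sele, E-selectin, was at 13.3, 26.4, 13.2 and 19.1 CPM and then at 45.0 and 79.6 CPM (log2 fold change 1.79, SE 0.39, adjusted p = 0.0193). Cd44, the hyaluronan receptor that leukocytes carry too, was at 13.2, 37.2, 33.4 and 19.2 CPM and then at 159 and 89.2 CPM (adjusted p = 0.0130). The integrin ligand Icam1 overlapped (292 to 465 against 400.5 and 408 CPM), as did Vcam1 (139.8 to 214 against 394 and 194 CPM). The adhesion genes that were no longer called were Sele without day 1 replicate 2 or healthy replicate 1 or 3 (adjusted p from 0.0562 to 0.253) and Selp, Sele and Cd44 without day 1 replicate 1 (adjusted p from 0.0543 to 0.275).

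The selectin genes lie side by side on chromosome 1, and the promoters of both hold the letters of an AP-1 site, which is why they are shown here. The windows run from 250 bases before to 50 bases after the transcription start (RefSeq, GRCm38.p6), from 5′ to 3′ on the strand of the gene, with the match to TGANTCA in capitals. The letters were searched on both strands, and 8.97% of 27025 genes with a promoter entry hold them in such a window, as do 2 of the 3 called adhesion genes and 1 of the 6 not called that have an entry. Letters of NF-kB, interferon response, heat shock, E-box and antioxidant response sites were searched too, and none of the 3 called adhesion genes held them. Of the 6 not called, 1 held the NF-kB letters (0.466% of all genes) and 2 the heat shock letters (9.04%). The AP-1 match lies 73 bases before the start in Sele and 139 bases before it in Selp. A match describes these letters only.
Sele, chr1:164047984-164048283, plus strand: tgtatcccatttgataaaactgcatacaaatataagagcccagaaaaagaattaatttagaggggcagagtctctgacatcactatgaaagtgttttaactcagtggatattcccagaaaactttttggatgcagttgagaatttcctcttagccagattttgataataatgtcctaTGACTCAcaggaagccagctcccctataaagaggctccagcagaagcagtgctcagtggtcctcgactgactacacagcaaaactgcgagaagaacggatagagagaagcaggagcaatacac
Selp, chr1:164115014-164115313, plus strand: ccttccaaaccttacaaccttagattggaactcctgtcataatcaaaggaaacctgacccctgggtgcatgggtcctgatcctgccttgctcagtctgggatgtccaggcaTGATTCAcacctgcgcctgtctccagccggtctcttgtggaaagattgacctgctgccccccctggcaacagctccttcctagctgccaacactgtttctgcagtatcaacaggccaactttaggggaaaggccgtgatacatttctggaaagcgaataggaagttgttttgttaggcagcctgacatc

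Chemokine genes changed in both directions. Of 33 tested, 8 rose, 3 fell, and the median log2 fold change was 0.62. Cxcl3, a ligand of the neutrophil receptor CXCR2, was at 0.449, 0.999, 0.489 and 0.298 CPM in healthy LSECs and at 97.5 and 25 CPM at day 1 (log2 fold change 6.78, SE 0.83, adjusted p = 0.000590). Cxcl2, Cxcl14, Pf4, Ppbp, Ccl9, Ccl6 and the scavenging receptor gene Ackr3 rose as well. The fallers were Ackr4, the scavenging receptor gene Ackr1 and Cxcl16, a membrane-bound chemokine, which was at 344, 319, 314 and 314 CPM and then at 89.1 and 129 CPM (log2 fold change -1.57, SE 0.23, adjusted p = 0.00172). Cxcl1 (211 to 344 against 448 and 339 CPM) and Ccl2 (49.6 to 106 against 256 and 202 CPM) were not called (adjusted p = 0.672 and 0.173). Several risers were far higher in day 1 replicate 1 than in replicate 2, with ratios of 3.90 for Cxcl3 and 3.04 for Pf4. The neutrophil marker sum had a ratio of 2.51 between the same samples, and the part of other cells in these chemokine values was not tested. Without day 1 replicate 1, 1 chemokine was called higher and 1 lower, and the median turned to -0.23. Cxcl3 and Ackr4 were called with any sample left out, and the test made no call for Cxcl2, Cxcl14, Pf4, Ccl9, Ccl6 and Cxcl16 without day 1 replicate 1 (adjusted p from 0.0686 to 0.275), Ppbp and Ackr3 without any 1 of the 6 samples (adjusted p from 0.0599 to 0.524) and Ackr1 without day 1 replicate 1 or 2 or healthy replicate 1, 2 or 3 (adjusted p from 0.0520 to 0.231).

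Cytokine genes rose in few members. Of 29 interleukin and TNF ligands and receptors, Osm, Tnf, Il1r1, Il1r2 and Il1rn rose and Tnfsf10 fell (median log2 fold change 0.52). Osm, oncostatin M, was at 4.21, 7.71, 4.74 and 2.94 CPM in healthy LSECs and 38.4 and 26.8 CPM at day 1 (log2 fold change 2.73, SE 0.54, adjusted p = 0.0116), and Tnf at 26.9, 35.6, 25.9 and 42.6 CPM and then at 124 and 65.8 CPM (log2 fold change 1.54, SE 0.32, adjusted p = 0.0154). Tnfsf10, which encodes the death ligand TRAIL, fell from 94.5, 62.2, 74.0 and 79.9 CPM to 10.8 and 16.5 CPM (log2 fold change -2.51, SE 0.30, adjusted p = 0.000463). Il6 was at 6.77 to 11.5 CPM and then at 5.51 and 2.54 CPM, and Il1b at 140.4 to 421 CPM and then at 1483 and 963 CPM, and neither was called (adjusted p = 0.438 and 0.146). Tnfsf10 was called with any sample left out, while none of the 5 risers was called without day 1 replicate 1, 3 without day 1 replicate 2 or healthy replicate 1, 3 or 4, and 4 without healthy replicate 2. Losses of a call were seen in Osm, Tnf and Il1r1 without day 1 replicate 1 (adjusted p from 0.169 to 0.530), Il1r2 without any 1 of the 6 samples (adjusted p from 0.0570 to 0.276) and Il1rn without day 1 replicate 1 or 2 or healthy replicate 1, 3 or 4 (adjusted p from 0.0628 to 0.417).

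Target genes of inflammatory signalling had few calls. Called were 5.0% of NF-kB and 10.5% of JAK-STAT3 genes, against 4.06% of all tested genes. An unadjusted p under 0.05 in edgeR was found in 4 of 20 and 9 of 19. Summed NF-kB genes were at 1805.5 to 2577 CPM in healthy LSECs and 2816 to 2894 CPM at day 1 (median log2 fold change 0.19). The JAK-STAT3 sums overlapped (6888 to 7604 against 7442 to 7462 CPM, median 0.54). Of 20 NF-kB subunits and feedback genes only Tnip3 was called, at 1.17 to 2.88 CPM and then 8.68 and 4.96 CPM (adjusted p = 0.0296). Nfkbia, the inhibitor that NF-kB induces, was at 662 to 1269 CPM and 1495 and 1605 CPM (adjusted p = 0.344). Of 19 JAK-STAT3 response genes Lcn2 and Lrg1 rose. Lcn2, lipocalin, was at 2.58, 2.82, 3.47 and 3.50 CPM in healthy LSECs and at 280.4 and 142 CPM at day 1 (log2 fold change 6.09, SE 1.00, adjusted p = 0.00401). The neutrophil marker sum was at 6956 and 2771 CPM in the same day 1 samples. The part of neutrophil RNA in Lcn2 was not tested. Lrg1, a secreted modulator of TGF-beta signalling in vessels, was at 12.3, 14.5, 14.2 and 125 CPM and then at 1645 and 1236 CPM (log2 fold change 5.12, SE 1.06, adjusted p = 0.0146), highest among healthy samples in replicate 4. Socs3, the feedback inhibitor of STAT3, was instead at 1244 to 1770.0 CPM and then at 695 and 754 CPM (adjusted p = 0.310). Of 37 interferon-stimulated genes 1 rose (Rsad2) and 1 fell (Irf1), with a median of 0.08. Irf1 was at 635, 511, 402 and 569 CPM and then at 108 and 135 CPM (log2 fold change -2.12, SE 0.42, adjusted p = 0.0112), and Rsad2 at 62.7 to 89.0 CPM and then at 385 and 277 CPM (adjusted p = 0.0372). Of 18 MHC genes 16 had a negative log2 fold change, with a median of -0.29. Below all healthy samples lay 8 and above them 0, against 17.9% and 20.0% of all tested genes. Called lower was 1 (5.56%, against 4.06% of all tested genes), the immunoproteasome gene Psmb9 (68.8 to 100.5 against 25.5 and 33.3 CPM, adjusted p = 0.0223), which shares exons with Tap1. Lcn2 aside, these calls depended on single samples, since the test made none for Tnip3, Lrg1, Irf1, Rsad2 and Psmb9 without day 1 replicate 1 (adjusted p from 0.127 to 0.546), Tnip3, Rsad2 and Psmb9 without healthy replicate 1 (adjusted p from 0.0504 to 0.0704), Rsad2 without healthy replicate 2 (adjusted p = 0.0859), Tnip3 and Rsad2 without healthy replicate 3 or 4 (adjusted p from 0.0699 to 0.0765) and Tnip3, Irf1, Rsad2 and Psmb9 without day 1 replicate 2 (adjusted p from 0.0526 to 0.0951).

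Among immediate early genes, Fosl1 stood apart. It encodes the AP-1 subunit Fra-1, and was at 0.968, 0.658, 0.655 and 0.767 CPM in healthy LSECs and at 41.6 and 44.9 CPM at day 1, 56.7-fold higher (log2 fold change 5.82, SE 0.53, adjusted p = 6.16e-05). Of 23 such genes it was the 1 riser, while Atf3 (617 to 1116 against 215 and 295 CPM, adjusted p = 0.0101) and Btg2 (970.3 to 1181 against 496 and 551 CPM, adjusted p = 0.0393) fell, and the median log2 fold change was -0.50. Fos itself was at 7630.5, 8273, 9056 and 9480.4 CPM and then at 4674 and 5488 CPM (adjusted p = 0.113), and Egr1 overlapped between the groups. Fosl1 kept its call when any sample was left out, and the falls did not in Btg2 without day 1 replicate 2 or healthy replicate 1, 2, 3 or 4 (adjusted p from 0.0649 to 0.188) and Atf3 and Btg2 without day 1 replicate 1 (adjusted p from 0.178 to 0.484). Heat shock genes and chaperones had no called member among 27 in edgeR or DESeq2, with 2 unadjusted p under 0.05 in edgeR (median -0.35).

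Several glycolytic genes rose beside Hif1a. The list counts Hif1a itself, and of its 22 genes tested, 9 rose (Hif1a among them) and none fell, with a median log2 fold change of 0.83. Hif1a, the oxygen-regulated subunit of hypoxia-inducible factor (chromosome 12, 73901375 to 73947530), was at 92.8, 89.6, 91.7 and 85.8 CPM in healthy LSECs and at 398 and 316 CPM at day 1 (log2 fold change 1.99, SE 0.17, adjusted p = 4.45e-05). Slc2a1, the glucose transporter GLUT1, rose from 10.3, 12.9, 12.6 and 7.58 CPM to 101 and 41.0 CPM (log2 fold change 2.71, SE 0.31, adjusted p = 0.000382). Pgk1, a phosphoglycerate kinase, rose from 96.7, 91.4, 99.4 and 105 CPM to 294 and 241 CPM (log2 fold change 1.45, SE 0.19, adjusted p = 0.000839). Slc16a3, Gapdh, Eno1, Pdk1, Pkm and Aldoa were also called higher. Ldha was at 448, 467, 489.6 and 445 CPM and then at 772 and 642 CPM, above all healthy samples without a call (adjusted p = 0.119). Summed over the list, the level was 2330.3 to 2628 CPM in healthy LSECs and 5844 and 4554 CPM at day 1, so that every injured sample exceeded every healthy sample. The ratio between both day 1 samples was 1.26 for Hif1a and 2.47 for Slc2a1, beside 2.51 for the neutrophil marker sum. Members called numbered 3 without day 1 replicate 1, 5 without replicate 2 and 6 without healthy replicate 4, and those not called were Gapdh and Pgk1 without day 1 replicate 1 (adjusted p from 0.0547 to 0.0941), Eno1 without day 1 replicate 1 or 2 (adjusted p from 0.0552 to 0.331), Pdk1 without day 1 replicate 1 or 2 or healthy replicate 4 (adjusted p from 0.0606 to 0.429), Pkm without day 1 replicate 1 or 2 or healthy replicate 1 or 4 (adjusted p from 0.0567 to 0.520) and Aldoa without day 1 replicate 1 or 2 or healthy replicate 1, 2 or 4 (adjusted p from 0.0562 to 0.339).

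Genes of redox defence and amino acid supply rose in part. Of 24 Nrf2 targets and metallothioneins 5 rose (Slc7a11, Txnrd1, Mt2, Hmox1 and G6pdx) and Gstm1 fell, with a median of 0.50. Mt2, a metallothionein, rose from 85.7, 52.2, 37.0 and 25.8 CPM to 875 and 445 CPM (log2 fold change 3.72, SE 0.61, adjusted p = 0.00415). Hmox1, heme oxygenase, was at 61.6, 165, 179 and 155 CPM in healthy LSECs and 814 and 280.1 CPM at day 1 (log2 fold change 1.96, SE 0.40, adjusted p = 0.0133). Nqo1, a classical target of Nrf2, was at 13.5, 10.5, 11.4 and 8.74 CPM and then at 8.12 and 7.99 CPM, not higher but slightly below the healthy samples (adjusted p = 0.627). Of 23 genes of the Atf4 response 5 rose and none fell (median 0.29). Slc7a11, the cystine transporter in both lists, was at 0.828, 1.23, 0.905 and 1.04 CPM and then at 34.5 and 12.9 CPM (log2 fold change 4.56, SE 0.58, adjusted p = 0.000761). Asns, asparagine synthetase, was at 1.08, 0.963, 0.770 and 1.03 CPM and then at 9.87 and 5.0 CPM (log2 fold change 2.95, SE 0.39, adjusted p = 0.000931). The cationic amino acid transporter Slc7a1, Mthfd2 and Cebpb were the other risers, whereas Atf4 itself overlapped (279 to 514 against 373 and 465 CPM). Hmox1 differed 2.91-fold and Slc7a11 2.67-fold between both day 1 samples. Slc7a11 and Asns were called with any sample left out, while without day 1 replicate 1 the risers numbered 1 of 24 in the Nrf2 list and 2 of 23 in the Atf4 list. Calls were missing for Hmox1, Mt2, Txnrd1, Slc7a1 and Mthfd2 without day 1 replicate 1 (adjusted p from 0.0579 to 0.646), G6pdx without day 1 replicate 1 or 2 or healthy replicate 1 or 4 (adjusted p from 0.0675 to 0.518), Gstm1 without day 1 replicate 1 or 2 (adjusted p from 0.0820 to 0.173) and Cebpb without day 1 replicate 1 or 2 or healthy replicate 1 or 3 (adjusted p from 0.0653 to 0.365).

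Genes of ribosome biogenesis were higher as a group. All 39 members passed the filter on low counts and had a positive log2 fold change, from 0.29 to 1.82 with a median of 0.84, and in all 39 both day 1 samples lay above all healthy samples, against 20.0% of all tested genes. Of these, 14 were called higher and none lower. Ncl, nucleolin, was at 358, 400.0, 363 and 306 CPM in healthy LSECs and at 836 and 578 CPM at day 1 (log2 fold change 0.99, SE 0.20, adjusted p = 0.0140). The RNA helicase gene Ddx21 rose from 50.9, 54.9, 56.9 and 38.5 CPM to 141 and 107 CPM (log2 fold change 1.30, SE 0.21, adjusted p = 0.00368). Dkc1, the pseudouridine synthase of small nucleolar particles, rose from 24.6, 28.4, 27.6 and 22.9 CPM to 66.5 and 54.9 CPM (log2 fold change 1.23, SE 0.20, adjusted p = 0.00388), and Wdr12, a factor of the large subunit, from 19.2, 23.8, 22.7 and 19.4 CPM to 54.9 and 41.7 CPM (log2 fold change 1.18, SE 0.19, adjusted p = 0.00373). Nop56, a core protein of box C/D particles, rose by 0.91 on the log2 scale (adjusted p = 0.0231). Members thus shared the direction of the change but differed in its size. The calls rested on day 1 replicate 1. Without it the median was 0.62 and no member was called, while DESeq2 called 25 of the 39 with all samples, and in edgeR there were 7 calls without replicate 2 and 9, 11, 10 and 6 without healthy replicates 1 to 4. Among the genes named here, calls were absent for Ncl, Ddx21, Dkc1, Wdr12, Nop56, Nop2, Wdr43 and Grwd1 without day 1 replicate 1 (adjusted p from 0.133 to 0.701), Nop2, Wdr43 and Grwd1 without healthy replicate 1 (adjusted p from 0.0701 to 0.107), Nop2 and Grwd1 without healthy replicate 2 (adjusted p from 0.0617 to 0.0820), Nop56, Nop2 and Wdr43 without healthy replicate 3 (adjusted p from 0.0600 to 0.0693), Ncl, Nop56, Nop2, Wdr43 and Grwd1 without healthy replicate 4 (adjusted p from 0.0648 to 0.153) and Nop56, Nop2, Wdr43 and Grwd1 without day 1 replicate 2 (adjusted p from 0.0830 to 0.200).

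Of the 13 called ribosome biogenesis genes with a promoter entry, 3 hold the E-box letters CACGTG, which read the same on both strands, as do 4 of the 21 that were not called, against 8.09% of all 27025 genes. The promoters of these 3 called genes are shown because all members of the list lay on the same side of the healthy samples. They are 300 bases each, from RefSeq on GRCm38.p6, from 5′ to 3′ on the strand of the gene, and the capitals mark the E-box. It starts 60 bases before the transcription start in Nop2, 17 bases after it in Wdr43 and 34 bases after it in Grwd1.
Nop2, chr6:125131633-125131932, plus strand: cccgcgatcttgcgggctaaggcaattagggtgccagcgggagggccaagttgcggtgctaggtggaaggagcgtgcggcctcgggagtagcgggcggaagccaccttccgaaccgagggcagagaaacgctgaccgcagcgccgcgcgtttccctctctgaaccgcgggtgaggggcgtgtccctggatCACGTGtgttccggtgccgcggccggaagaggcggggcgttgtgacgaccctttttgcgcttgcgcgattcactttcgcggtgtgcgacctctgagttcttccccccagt
Wdr43, chr17:71615965-71616264, plus strand: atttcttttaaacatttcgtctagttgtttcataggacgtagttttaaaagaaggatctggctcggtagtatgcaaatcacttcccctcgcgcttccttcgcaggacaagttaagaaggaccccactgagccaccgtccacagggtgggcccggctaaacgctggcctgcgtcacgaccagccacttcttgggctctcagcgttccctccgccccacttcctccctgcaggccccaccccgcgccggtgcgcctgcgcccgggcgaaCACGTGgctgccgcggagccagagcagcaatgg
Grwd1, chr7:45830740-45831039, minus strand: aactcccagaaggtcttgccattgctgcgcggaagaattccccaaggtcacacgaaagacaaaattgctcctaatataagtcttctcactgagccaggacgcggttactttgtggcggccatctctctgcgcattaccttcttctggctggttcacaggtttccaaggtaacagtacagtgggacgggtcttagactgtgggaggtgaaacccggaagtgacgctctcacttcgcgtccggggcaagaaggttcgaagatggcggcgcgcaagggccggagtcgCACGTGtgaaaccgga
Nop2 was at 24.9 to 34.6 CPM in healthy LSECs and 74.2 and 62.0 CPM at day 1, Wdr43 at 38.0 to 48.5 CPM and then 85.9 and 64.7 CPM, and Grwd1 at 13 to 18.9 CPM and then 38.5 and 27.8 CPM (adjusted p = 0.0456, 0.0263 and 0.0275).

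Other genes of protein synthesis and turnover had mostly positive values with few calls. Of 87 cytosolic ribosomal protein genes tested, 82 had a positive log2 fold change, the median was 0.59, and Rps2 (117 to 191 against 404 and 356 CPM) and Rpsa (126 to 238 against 466 and 462 CPM) were called higher. Of 31 translation factors 27 had a positive value (median 0.44), and Eif4a1, the helicase that unwinds leader sequences, was called (125 to 167 against 370.0 and 202 CPM, adjusted p = 0.0302). Of 38 proteasome subunits 35 had a positive value (median 0.54), and none but Psmb9, which fell, was called (DESeq2 called 4 higher). Psmd1, a subunit of the regulatory particle, was at 132 to 175 CPM and then at 249 and 231 CPM (adjusted p = 0.0525). Ribosomal protein genes have many processed copies with nearly the same sequence, so that their counts are uncertain. Single samples decided these calls, which were lost for Rps2, Rpsa and Eif4a1 without day 1 replicate 1 (adjusted p from 0.183 to 0.853), Rpsa and Eif4a1 without healthy replicate 1 or 2 (adjusted p from 0.0534 to 0.0738), Eif4a1 without healthy replicate 4 (adjusted p = 0.120) and Rpsa without day 1 replicate 2 (adjusted p = 0.118).

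Genes of cell division had lower values. All 31 mitosis genes had a negative log2 fold change, between -2.52 and -0.35 with a median of -1.18, and 17 of them lay below all healthy samples in both injured mice, against 17.9% of all tested genes. Cenpa, the centromeric histone, was the 1 called member and fell from 155, 96.2, 90.8 and 109 CPM to 21.7 and 17.6 CPM (log2 fold change -2.52, SE 0.27, adjusted p = 0.000239). DESeq2 called 10 of the 31 lower. Mki67, which encodes the proliferation marker Ki67, was at 25.4, 27.6, 48.1 and 13.5 CPM in healthy LSECs and 17.7 and 8.67 CPM at day 1, with overlap (adjusted p = 0.354), and Cdk1, the main kinase of mitosis, at 29.9, 26.7, 41.5 and 17.9 CPM and then 20.3 and 12.9 CPM (adjusted p = 0.232). Of 37 DNA replication genes edgeR called none, 6 had an unadjusted p under 0.05, DESeq2 called 4 lower and the median was -0.40, with Pcna at 164 to 338 CPM and then 249 and 237 CPM. Among 24 p53 targets and growth arrest genes edgeR called 3 lower and none higher, while DESeq2 called 4 lower and 3 higher. The log2 fold change was positive in 16 of the 24, with a median of 0.28. Above all healthy samples lay 9 and below them 3, against 20.0% and 17.9% of all tested genes. Cdkn1c, the cyclin-dependent kinase inhibitor p57, fell from 62.1, 43.5, 59.3 and 32.1 CPM to 6.48 and 6.72 CPM (log2 fold change -2.90, SE 0.32, adjusted p = 0.000314). Sesn1, a stress-induced sestrin, and the kinase gene Plk2 fell as well, while Cdkn1a, the inhibitor p21, was at 177 to 418 CPM and then at 763 and 683 CPM without a call (adjusted p = 0.0772). Cenpa and Cdkn1c kept their calls when any sample was left out, and those of the other fallers were lost for Sesn1 and Plk2 without day 1 replicate 1 or 2 (adjusted p from 0.0960 to 0.537) and Plk2 without healthy replicate 1, 2, 3 or 4 (adjusted p from 0.0679 to 0.0877).

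**Figure D3:**
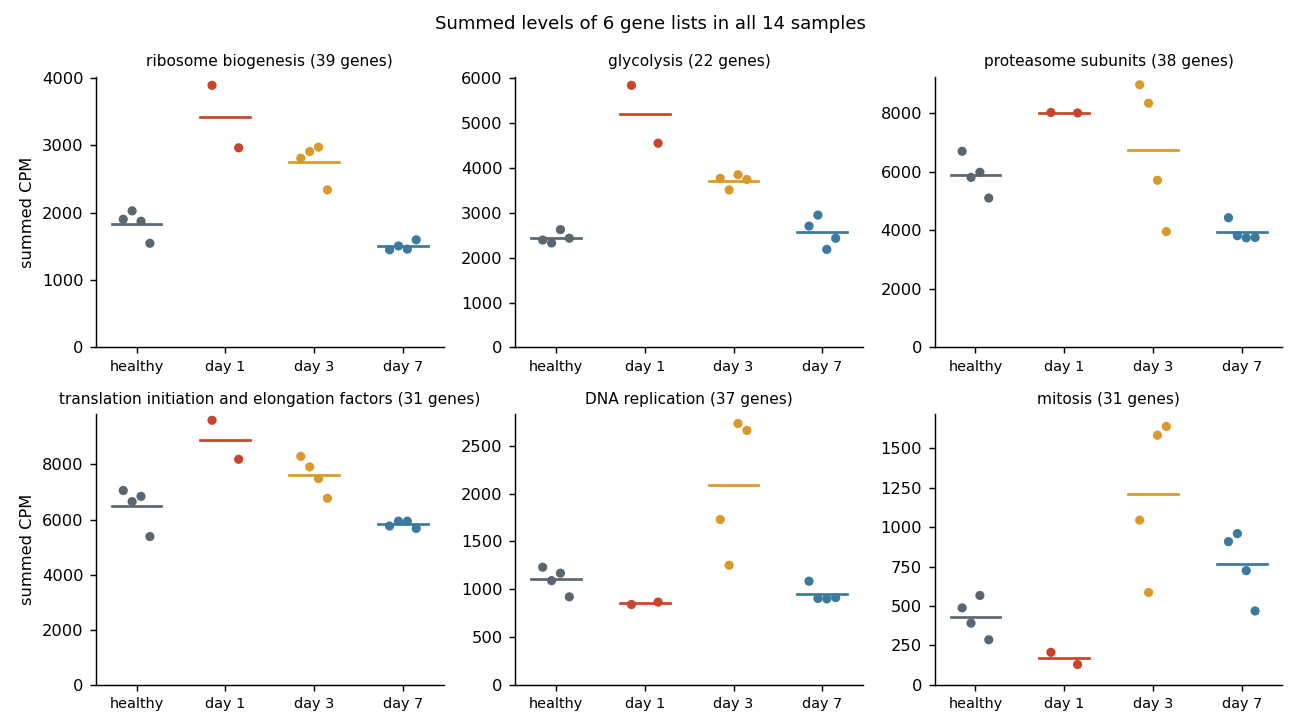
Summed CPM of 6 gene lists in healthy LSECs and 1, 3 and 7 days after CCl4, with 1 point per sample and a line at the group mean. Ribosome biogenesis (2961 and 3887 CPM) and glycolysis (4554 and 5844 CPM) stand above all healthy samples at day 1, and mitosis (129 and 206 CPM) stands below all other samples of the series.

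Matrix genes moved apart from each other. Of 28 basement membrane and collagen genes 3 rose (Col4a1, Col4a2 and Col13a1) and 3 fell (Lama3, Lama4 and Col4a4), with a median log2 fold change of -0.97. Col4a2, a main chain of basement membrane collagen, was at 298, 279.6, 319.9 and 236 CPM in healthy LSECs and 906 and 993 CPM at day 1 (log2 fold change 1.74, SE 0.34, adjusted p = 0.0102), and its neighbour Col4a1, with which it shares exons, at 367 to 509 CPM and then 1284 and 1254 CPM (adjusted p = 0.0325). Lama4, the laminin chain of vessels, fell from 195, 231, 211 and 264 CPM to 43.9 and 79.9 CPM (log2 fold change -1.86, SE 0.41, adjusted p = 0.0202). Lama3 (0.869 to 1.56 against 0.108 and 0.176 CPM) and Col4a4 (3.44 to 6.38 against 0.646 and 0.726 CPM) were low in all samples. The test made no call for Col4a2, Lama3 and Col4a4 without day 1 replicate 1 or 2 (adjusted p from 0.0669 to 0.243), Lama4 without day 1 replicate 1 or 2 or healthy replicate 4 (adjusted p from 0.0582 to 0.468), Col4a1 without any 1 of the 6 samples (adjusted p from 0.0547 to 0.345) and Col13a1 without day 1 replicate 1 or 2 or healthy replicate 1, 2 or 3 (adjusted p from 0.0603 to 0.278), so that none of the 6 was called without either day 1 sample. Of 28 matrix proteases and inhibitors 7 rose and none fell (median 0.72). Timp1, an inhibitor of metalloproteinases, was at 2.93, 2.17, 1.47 and 1.41 CPM and then at 75.3 and 53.5 CPM (log2 fold change 5.01, SE 0.70, adjusted p = 0.00128). Adam8, a membrane protease that leukocytes carry, was at 3.52, 6.24, 5.38 and 1.15 CPM and then at 128 and 46.6 CPM (log2 fold change 4.42, SE 0.61, adjusted p = 0.00120), and Mmp8, Adamts4, Mmp12, Timp3 and Mmp19 were also called. Adam8 and Mmp8 differed 2.74-fold and 2.82-fold between both day 1 samples, beside 2.51-fold for the neutrophil marker sum, and the part of neutrophil RNA in them was not tested. Timp1 differed 1.41-fold. There were 4 called proteases and inhibitors without day 1 replicate 1 and 5 without replicate 2, and the calls lost were Mmp12 without day 1 replicate 1 (adjusted p = 0.526), Timp3 without day 1 replicate 1 or 2 or healthy replicate 4 (adjusted p from 0.0516 to 0.249) and Mmp19 without day 1 replicate 1 or 2 or healthy replicate 1, 2 or 3 (adjusted p from 0.0576 to 0.771).

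Levels also differed between both injured mice. Over the 100 tested genes of 9 endothelial lists (scavenger and lectin receptors, identity, pericentral, periportal, VEGF, Notch, tone, adhesion and angiocrine) that reached 10 CPM in both day 1 samples, the level in day 1 replicate 1 divided by that in replicate 2 ranged from 0.39 (Rab3b) to 2.04 (Vcam1). Its median was 0.885, with quartiles of 0.740 and 1.05, and it was above 1.5 in 9 genes and below the inverse of 1.5 in 14. Over the 6 neutrophil markers at this level the ratio ranged from 1.49 (Csf3r) to 2.98 (Retnlg), with a median of 2.57. It ranged from 0.486 to 2.40 over 11 monocyte markers (median 1.39) and from 1.56 to 8.61 over 10 Kupffer cell markers (median 2.21). These ratios are a description of 2 samples, and the part of other cells in the endothelial values was not tested.

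Circadian clock genes fell in 3 members. Of 18 tested, Nfil3 rose and Nr1d1, Nr1d2 and Bhlhe40 fell (median log2 fold change -0.24). Nr1d1, which encodes the repressor REV-ERB alpha and shares exons with Thra, was at 50.4, 55.5, 89.5 and 57.0 CPM in healthy LSECs and at 6.69 and 4.62 CPM at day 1 (log2 fold change -3.48, SE 0.53, adjusted p = 0.00242), and its paralog Nr1d2 at 33.8, 27.5, 25.8 and 33.0 CPM and then 10.7 and 7.23 CPM (log2 fold change -1.74, SE 0.34, adjusted p = 0.0115). Nfil3 was at 7.80, 12.8, 9.67 and 11.4 CPM and then at 84.8 and 48.8 CPM (adjusted p = 0.0117). The core activator Arntl overlapped (36.1 to 50.7 against 34.5 and 43.3 CPM). The labels do not give the hour at which livers were taken, and hour and injury cannot be told apart here. Clock genes without a call once a sample was left out were Nr1d1, Nr1d2 and Bhlhe40 without day 1 replicate 1 or 2 (adjusted p from 0.0578 to 0.198) and Nfil3 without day 1 replicate 1 (adjusted p = 0.206). Neither edgeR nor DESeq2 called any of 21 Slit and Robo genes (median 0.07, 5 unadjusted p under 0.05 in edgeR) or 23 cholesterol synthesis genes (median 0.05, 4 unadjusted p under 0.05). Robo4, the endothelial Robo receptor, was at 319 to 383 CPM and then at 286 and 282 CPM (adjusted p = 0.794).

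**Figure D4:**
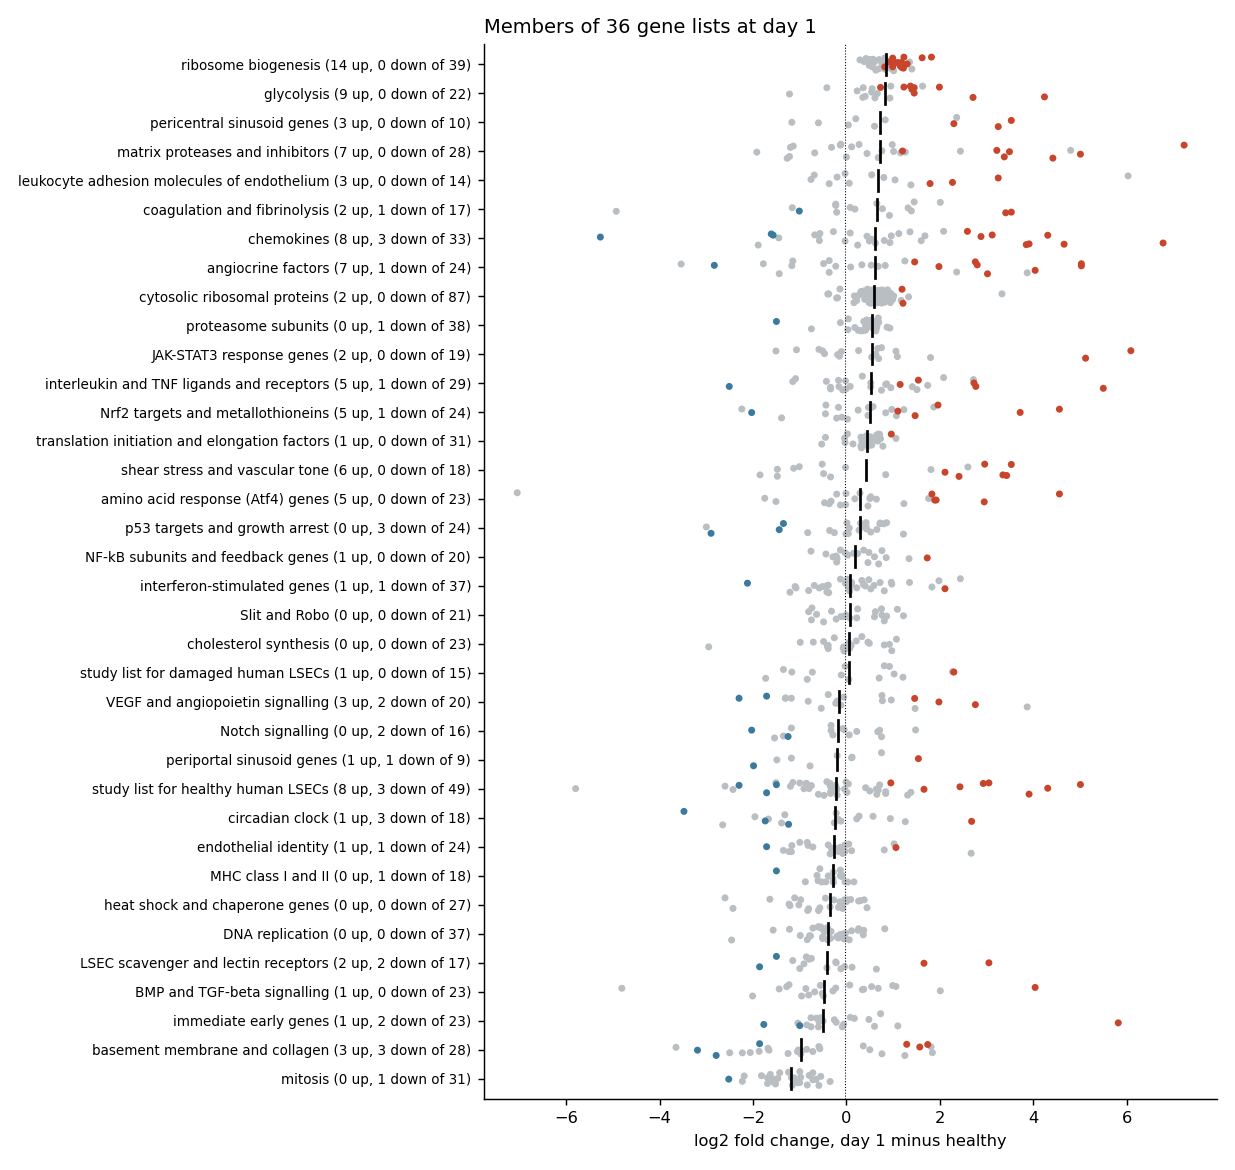
Log2 fold change (day 1 minus healthy) of each tested member of 36 gene lists, with called members in red (higher) and blue (lower), other members in grey, a black bar at the median of the list and a dotted line at the median of all genes (-0.03). Ribosome biogenesis and mitosis members lie on 1 side of 0 each, and most other lists spread to both sides.

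Day 1 was also compared with the later days. Between day 1 and day 3, 676 genes (2.54%) were called, 258 higher at day 1 (0.969%) and 418 lower (1.57%), and between day 1 and day 7 there were 2142 (8.04%), 1171 higher (4.40%) and 971 lower (3.65%). Both comparisons use the same day 1 samples as the comparison with healthy LSECs. Thbd was at 152 ± 82.9 CPM at day 3 and 86.8 ± 24.0 CPM at day 7 (mean ± SD, n = 4), and its day 1 level exceeded both (log2 differences 3.36 and 4.17, adjusted p = 0.00195 and 0.000166). Hif1a was at 95.8 ± 9.70 and 74.1 ± 9.85 CPM (n = 4 each), a log2 difference of 1.90 and 2.27 (adjusted p = 0.000300 and 9.84e-05). Inhbb was at 121 ± 52.3 CPM at day 3 and 23.1 ± 10.2 CPM at day 7 (n = 4 each), Lyve1 at 924 ± 114 and 573 ± 126 CPM, and Fosl1 at 3.08 ± 2.16 and 0.870 ± 0.311 CPM. These 3 genes were higher at day 1 than on either later day (adjusted p from 0.000128 to 0.0114), as were Nos3, Ccn2 and Angpt2 (adjusted p from 0.000202 to 0.0309).

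Other genes did not pass the test against day 3. Hgf was at 112 ± 32.9 CPM at day 3 (adjusted p = 0.311), Gas6 at 80.6 ± 3.26 CPM (adjusted p = 0.0778), Nrp1 at 755 ± 340.5 CPM (adjusted p = 0.118) and Slc7a1 at 37.8 ± 13.4 CPM (adjusted p = 0.979). Gas6 was lower at day 1 than at day 7, where it was at 168 ± 18.5 CPM (adjusted p = 0.000202). Ackr4, Itga8, Prelp and Cenpa were lower at day 1 than on both later days (adjusted p from 0.000166 to 0.0211). The counts of both comparisons depended on the day 1 samples, with 49 genes called against day 3 and 146 against day 7 without replicate 1, and 67 and 343 without replicate 2. Cell division genes were higher at day 3 than at day 1. Mki67 was at 134 ± 75.4 CPM and Cdk1 at 117 ± 20.4 CPM at day 3, with log2 differences of -3.35 and -2.82 for day 1 minus day 3 (adjusted p = 0.0196 and 0.00294).

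**Figure D5:**
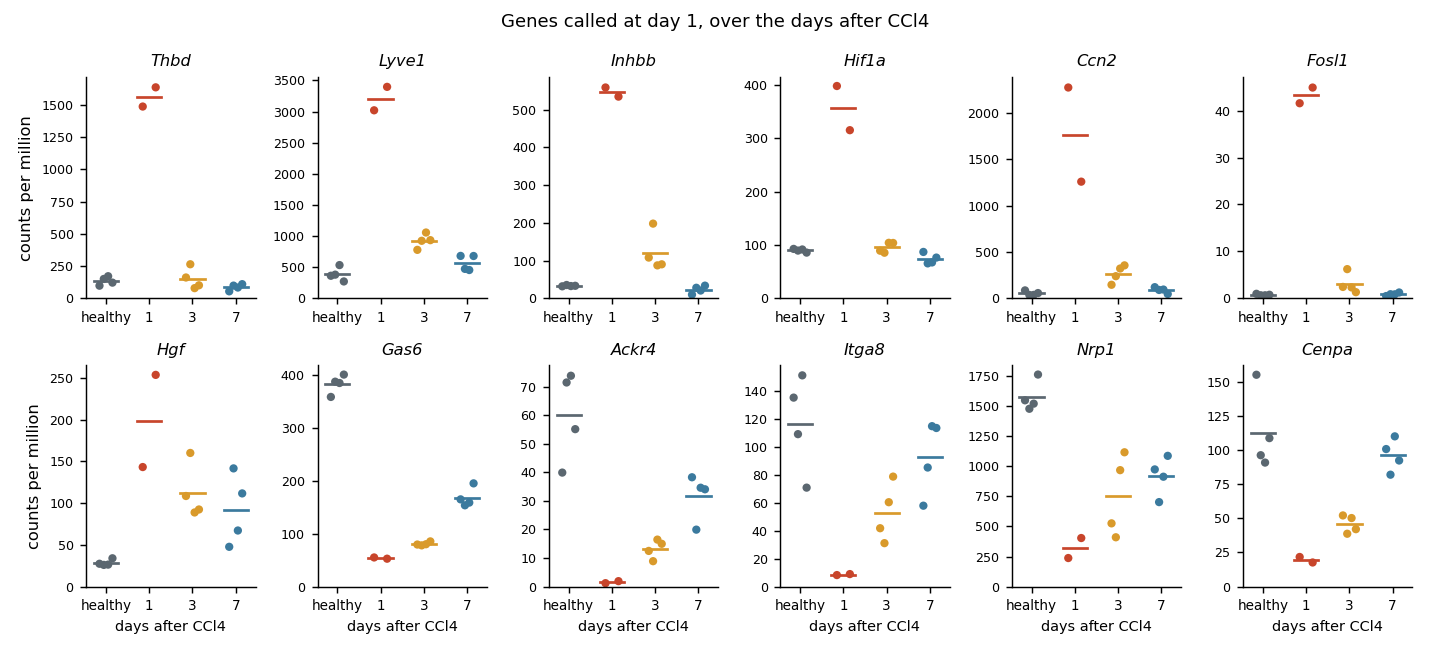
Level in CPM of 12 genes called at day 1, in each of the 14 samples by group, with a line at the group mean. Thbd, Lyve1, Inhbb, Hif1a, Ccn2 and Fosl1 are highest in the day 1 samples, and Gas6, Ackr4, Itga8, Nrp1 and Cenpa lowest.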

How the data were processed

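RNA of sorted LSECs of 14 mice was sequenced, and the deposited file holds raw counts of reads per Ensembl gene, made by the authors, with no normalization. Reads had been trimmed with AfterQC, mapped with STAR to GRCm38.p6 and assembled with StringTie, as the methods and the submitters' processing notes state, while versions, annotation release, strand setting and counting step are not given in the sources used here. Without a known strand setting, reads of a gene and of an overlapping gene cannot be told apart. Genes were named through GENCODE vM21, which holds 54495 of 54524 identifiers.

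Counts were fitted in edgeR 4.0.16 (R 4.3.3) over all 14 samples as 4 group means, after filterByExpr (minimum 10 counts, 26626 genes left) and TMM scaling, with the quasi-likelihood test and Benjamini-Hochberg adjustment over all tested genes at 0.05. The fit was tested on simulated data. The spread was estimated over all groups, and p-values over 2 and 4 mice rest on it. Alternatives were DESeq2 1.42.0, limma 3.58.1 with voom and sample weights, other scalings and filters, models of 2 groups, a replicate block, and leaving out each sample. CPM are counts per 1000000 of the scaled library size, not divided by gene length. Samples held 46401496 to 103912264 counts, and a count of 0 allows up to 3 counts.

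Genes were named by 3 rules: the 8 largest rises and falls of called protein-coding genes whose groups do not overlap and that reach 10 CPM in every sample of the higher group, the defining genes of each list, and up to 3 called members per list with the smallest p. The members of the comparison and the 36 gene lists and 10 marker lists were chosen with earlier results of these data known. Called list members outside these rules, among them Clec1b, Nop2, Wdr43 and Grwd1, and genes outside the lists were named after their values were seen. The values of 1 defining gene are not reported here. Promoters are from RefSeq (GRCm38.p6). For lists whose called members all rose, they were searched for NF-kB, AP-1, interferon response, heat shock, E-box and antioxidant response letters. The promoters shown were picked among those with a match.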

Additional observations from a re-analysis of the deposited data

Results flagged for a closer look

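In 15 genes, 1 healthy sample stood apart from the other 3 by more than Dixon's 95% critical value for 4 samples, where the ratio is the gap to the nearest sample over the whole range of log2(CPM + 0.1). Healthy replicate 1 was the highest sample, with a ratio of 1.0 for Car4 and 0.832 for Cxcl16. Healthy replicate 1 was the lowest sample, with a ratio of 0.896 for Vcan, 0.866 for Hmox1 and 0.918 for Clec4f. Healthy replicate 4 was the highest sample, with a ratio of 0.953 for Rspo3, 0.929 for Lrg1 and 0.837 for Alb. Healthy replicate 4 was the lowest sample, with a ratio of 0.852 for Efnb2, 0.967 for Flt1, 0.917 for S100a8, 0.923 for S100a9, 0.844 for Chil3, 0.838 for Cd79a and 0.902 for Rpsa. Such a ratio is reached by chance in about 1 of 20 groups, and 181 genes were examined.

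The change from healthy LSECs differed between day 1 and a later day in 116 cases, by the test of the difference itself (edgeR, adjusted p under 0.05). The log2 differences of day 1 minus day 3 were positive for Fosl1 (3.82), Map3k6 (3.68), Thbd (3.36), Ch25h (3.36), Qsox1 (3.06), Itgb3 (2.91), Mt2 (2.87), Ccn2 (2.73), Nos3 (2.51), Inhbb (2.18), Akap12 (2.16), Cd93 (2.15), Rsad2 (2.15), Psg22 (2.05), Hmox1 (1.91), Hif1a (1.90), Fabp4 (1.82), Lyve1 (1.80), Clec1b (1.76), Slc2a1 (1.5), Plaur (1.37), Angpt2 (1.17) and Heg1 (0.74). They were negative for Prelp (-3.13), Ackr4 (-3.09), Lama3 (-2.69), Itga8 (-2.62), Nr1d1 (-2.56), Sept4 (-2.42), Adgrg6 (-2.04), Nr1d2 (-1.83), Sh3d21 (-1.77), Ces2e (-1.45), Psmb9 (-1.40), Gpr155 (-1.26), Cenpa (-1.22) and Cxcl16 (-0.94). For day 1 minus day 7 they were positive for Ctsj (5.77), Fosl1 (5.63), S100a8 (5.32), Car4 (5.07), Cxcl3 (4.90), Mmp8 (4.79), Map3k6 (4.76), Cxcr2 (4.68), Inhbb (4.56), Ch25h (4.35), Ccn2 (4.32), Psg22 (4.24), Thbd (4.17), Mt2 (3.86), Apln (3.63), Itgb3 (3.57), Tspan8 (3.34), Tubb3 (3.26), Pf4 (3.22), Steap1 (3.17), Qsox1 (3.17), Slc7a11 (2.91), Nos3 (2.87), Plaur (2.86), Fabp4 (2.77), Cd93 (2.67), Akap12 (2.59), Lyve1 (2.49), Hif1a (2.27), Selp (2.19), Angpt2 (2.13), Hmox1 (1.95), Clec1b (1.95), Slc2a1 (1.92), Asns (1.86), Nop2 (1.82), Wdr12 (1.63), Nop56 (1.62), Txnrd1 (1.6), Pgk1 (1.53), Dkc1 (1.52), Ddx21 (1.48), Slc7a1 (1.45), Grwd1 (1.37), Wdr43 (1.19), Col4a2 (1.17), Eif4a1 (1.15), Ncl (1.11), Cdh5 (0.93), Heg1 (0.90) and Rps2 (0.89). Negative differences from day 7 were found for Car3 (-8.14), Thrsp (-4.36), Ackr4 (-4.35), Prelp (-3.63), Itga8 (-3.43), Samd12 (-3.34), Nr1d1 (-3.29), Lama3 (-3.26), Gpr155 (-2.96), Adgrg6 (-2.62), Ces2e (-2.56), Sept4 (-2.54), Cdkn1c (-2.42), Nr1d2 (-2.36), Sh3d21 (-2.35), Cenpa (-2.29), Hey1 (-2.27), Col4a4 (-1.89), Tnfsf10 (-1.82), Map2k6 (-1.76), Lama4 (-1.72), Gas6 (-1.64), Nrp1 (-1.52), Cd300lg (-1.41), Dnase1l3 (-1.37), Kdr (-1.19), Cxcl16 (-1.02) and Rab3il1 (-0.85). All these genes had been called at day 1 against healthy LSECs, in a comparison that uses the same day 1 samples.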

How the results depend on the processing

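Scaling by DESeq2's size factors in edgeR (RLE), by library size only, a test of all genes without a filter and a filter of 10 counts in every sample gave 832 to 1203 calls at day 1 against healthy LSECs. DESeq2 called 2839, 4576 and 2408 genes against healthy LSECs, day 7 and day 3, limma voom with sample quality weights 4308, 7610 and 3344, and models of only the 2 groups compared 2327, 4465 and 189. The share of higher genes at day 1 against healthy LSECs was 59.6% in edgeR, 42.9% in DESeq2 and 50.9% in the model of 2 groups. With the replicate number as a block, 594 genes were called against healthy LSECs, 1084 against day 7 and 311 against day 3. The deviations of same-numbered healthy and day 1 samples from their group means correlated by 0.0015 and -0.109. The deviations of the 2 day 1 samples mirror each other, so that these values cannot show whether the numbers pair the samples. Leaving out 1 sample in turn gave 164 to 810 calls against healthy LSECs, 146 to 1950 against day 7 and 49 to 915 against day 3, lowest without day 1 replicate 1 in each case. Against healthy LSECs there were 467 without day 1 replicate 2 and 714 without healthy replicate 1. Against day 7, there were 1222, 1062 and 1110 calls without day 7 replicate 2, 3 and 4. A lone day 1 sample was assumed to vary like the other groups. The sign of the log2 fold change turned in 15 genes, none of them called. It was turned with the replicate block in Pecam1 (0.25), Id1 (-0.26), Flt1 (0.07), Notch1 (0.06), H2-Aa (-0.40), Mcm2 (0.02) and Adgre1 (0.06), with limma voom in Id1 (-0.05), H2-Aa (-0.16), Slit2 (0.06) and Lrat (0.04), with library size only in H2-Aa (-0.02) and with no filter in H2-Aa (-0.04). With each sample left out in turn it ranged from -0.12 to 0.02 for Pecam1, -0.54 to 0.03 for Ntn4, -0.31 to 0.33 for Id1, -0.22 to 0.02 for Flt1, -0.05 to 0.16 for Icam1, -0.23 to 0.81 for Ifit1, -0.45 to 0.36 for H2-Aa, -0.0027 to 0.38 for Atf4, -0.25 to 0.09 for Pcna, -0.23 to 0.19 for Slit2, -0.55 to 0.32 for Adgre1, -0.94 to 0.03 for Lrat and -0.26 to 0.51 for Epcam. The cause of these differences was not tested. With 2 day 1 samples an exact permutation test cannot go below p = 0.0667.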

Other observations

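Genes outside the lists were chosen after their values were seen, as the 6 rises and 6 falls with the smallest p among called genes without overlap that reach 10 CPM in each sample of the higher group. All 12 were called with any 1 of the 6 samples left out. Itgb3, the integrin chain beta 3 of endothelium and platelets, was at 8.74, 9.72, 13.6 and 4.92 CPM in healthy LSECs and at 339 and 445 CPM at day 1 (log2 fold change 5.41, SE 0.37, adjusted p = 1.66e-05). Cd93, a C-type lectin of endothelium, rose from 275, 198, 256 and 199 CPM to 1819.6 and 1597 CPM (log2 fold change 2.88, SE 0.21, adjusted p = 2.01e-05). Ch25h, which makes 25-hydroxycholesterol, was at 2.57 to 3.82 CPM and then at 310.1 and 214 CPM (adjusted p = 3.61e-05), and it overlaps Gm26902. Qsox1, a sulfhydryl oxidase that overlaps Gm37539, went from 35.0 to 66.5 CPM to 486 and 415 CPM (adjusted p = 3.48e-05). The metalloreductase Steap2 (1.06 to 2.36 against 41.3 and 28.9 CPM) and the pregnancy-specific glycoprotein Psg22 (0.103 to 0.198 against 12.7 and 23.2 CPM) also rose (adjusted p = 2.01e-05 and 2.01e-05). Psg22 belongs to a family of similar copies, so that its counts are uncertain.

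Of the falls, Cd300lg, an adhesion molecule of capillary endothelium, was at 872, 705, 862 and 1002 CPM in healthy LSECs and at 111 and 189.9 CPM at day 1 (log2 fold change -2.51, SE 0.29, adjusted p = 0.000383). Map2k6, a kinase upstream of p38, fell from 22.1, 21, 25.1 and 21.9 CPM to 2.73 and 4.82 CPM (log2 fold change -2.58, SE 0.31, adjusted p = 0.000528). Sh3d21 (14.2 to 17.7 against 1.76 and 2.31 CPM), the carboxylesterase Ces2e (32.7 to 47.9 against 4.13 and 4.01 CPM), the septin Sept4 (79.5 to 101 against 7.88 and 19.4 CPM) and Rab3il1 (274 to 318 against 78.7 and 91.3 CPM) fell as well (adjusted p = 0.000255, 0.000382, 0.000732 and 0.000787). Sept4 overlaps Gm11492. In all 6 genes both day 1 samples stood below every healthy sample.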
